A study of Mus musculus with 8 samples.

Results

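The interferon-induced genes of mouse skin were followed as a set of 39 genes, chosen by symbol as widely used targets of interferon out of the 50981 gene symbols that the transcriptome tables hold. They were read in dorsal skin or epidermal cells of C57BL/6 mice with a conditional knockout of JunB (JunB cKO, JunB -/- in the labels) and of wild type mice (JunB +/+) in 3 pairs of conditions, namely keratinocytes of unperturbed adult skin released with trypsin, skin biopsies 4 days after hair depilation (hair plucking), and skin biopsies 30 days after wounding. In JunB cKO mice floxed JunB alleles are removed by a Cre recombinase under the K14 promoter, so that the deletion concerns the epidermal cells and their progeny, while dermal and immune cells of the biopsies keep the gene. The labels list 8 libraries, a single one for each genotype of the keratinocyte and plucking pairs and 2 for each genotype of the wounds, all made from RNA pooled over samples of a group. Each table gives 1 FPKM value (fragments scaled to transcript length and to the mapped fragments of the library) per genotype and gene, so that no difference below could be compared with a spread between replicates, and no test was possible. All differences are given as a log2 ratio, log2((cKO + 1)/(WT + 1)) of the FPKM values, and a gene is counted as higher or lower by at least 2-fold where this ratio is at least 1 or at most -1. Pairs of FPKM values name wild type first and JunB cKO second.

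Interferons are cytokines that put cells into an antiviral state. Type I and type III interferons signal through JAK kinases to a complex with STAT2 and IRF9 that binds the interferon-stimulated response element (ISRE), whereas interferon gamma acts at the gamma-activated sequence (GAS). The products of the target genes sense foreign RNA, block translation of viral messages, restrict entry or release of virus, or attack vacuoles of intracellular pathogens, and several of them feed back on the pathway. In the epidermis keratinocytes can make and answer interferons, and resident and recruited immune cells do so too. JunB belongs to AP-1, a family of dimeric factors that recognize a different site.

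The promoters of 5 members are shown because they carry elements through which interferons are known to act. The sequences are the 250 bases before the RefSeq transcription start (build GRCm38.p6), written 5′ to 3′ on the strand of the gene, and capitals mark every match to the ISRE core GAAANNGAAA or to the GAS element TTCNNNGAA on either strand. Isg15 and Ifit1 stand for the antiviral effectors with ISRE cores alone, Oas1a for a gene with both elements, Irf1 for a gene with a GAS alone, and Gbp5 for the GTPases. Their positions are chr4:156200819-156201068 (minus strand) for Isg15, chr19:34640639-34640888 (plus strand) for Ifit1, chr5:120907526-120907775 (minus strand) for Oas1a, chr11:53769764-53770013 (plus strand) for Irf1 and chr3:142496684-142496933 (plus strand) for Gbp5.
Isg15: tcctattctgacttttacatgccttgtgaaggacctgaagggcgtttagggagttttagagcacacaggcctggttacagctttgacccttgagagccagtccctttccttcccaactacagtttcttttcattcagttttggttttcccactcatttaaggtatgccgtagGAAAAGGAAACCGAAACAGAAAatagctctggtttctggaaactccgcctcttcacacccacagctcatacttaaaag
Ifit1: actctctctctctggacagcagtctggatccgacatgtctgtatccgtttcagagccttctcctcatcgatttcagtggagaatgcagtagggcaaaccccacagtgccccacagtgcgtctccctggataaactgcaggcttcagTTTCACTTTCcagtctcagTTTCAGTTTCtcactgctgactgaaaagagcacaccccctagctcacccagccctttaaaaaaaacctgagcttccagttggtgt
Oas1a: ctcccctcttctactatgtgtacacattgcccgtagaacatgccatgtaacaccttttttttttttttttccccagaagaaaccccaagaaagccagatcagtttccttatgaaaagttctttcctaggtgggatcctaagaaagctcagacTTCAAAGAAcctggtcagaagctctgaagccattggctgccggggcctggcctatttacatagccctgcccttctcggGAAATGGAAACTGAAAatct
Irf1: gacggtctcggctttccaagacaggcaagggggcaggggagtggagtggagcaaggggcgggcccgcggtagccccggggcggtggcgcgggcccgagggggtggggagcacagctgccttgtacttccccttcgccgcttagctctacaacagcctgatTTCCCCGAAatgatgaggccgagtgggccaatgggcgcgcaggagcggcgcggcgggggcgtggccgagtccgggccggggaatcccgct
Gbp5: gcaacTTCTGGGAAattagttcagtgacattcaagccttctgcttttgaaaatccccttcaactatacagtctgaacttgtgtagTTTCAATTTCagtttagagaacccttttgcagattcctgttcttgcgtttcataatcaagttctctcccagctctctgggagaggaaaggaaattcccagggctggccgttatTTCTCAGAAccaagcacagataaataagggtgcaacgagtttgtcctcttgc

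The Isg15 promoter holds overlapping ISRE cores in a single block close to the start, whereas Ifit1 holds a pair of separate cores on the opposite strand. Of the 39 members, 29 had a RefSeq promoter window, with 33 windows in all, each reaching from 250 bases before to 50 bases after a start. An ISRE core was found in 18 of the 33 windows (54.5%), compared with 3.44% of all 32851 windows. GAS elements were found in 9 windows (27.3%, against 8.30% of all windows), and 6 windows held both. The AP-1 site TGANTCA was present in 7 windows (21.2%, against 7.81% of all windows). These were the windows of Ifit3, Oas3, Gbp2, Irgm1, Ifitm3, Rsad2 and Xaf1. By role, all 6 of the GTPase genes with a window held an ISRE core, whereas this was the case for 1 of 4 transcription factor genes. Matches are letters in a window and were not checked for binding. No window was listed for Usp18, Ifi204, Dhx58, Iigp1, Parp14, Ifi27l2a, Oas2, Rtp4, Mx2 and Mx1.

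**Figure D1:**
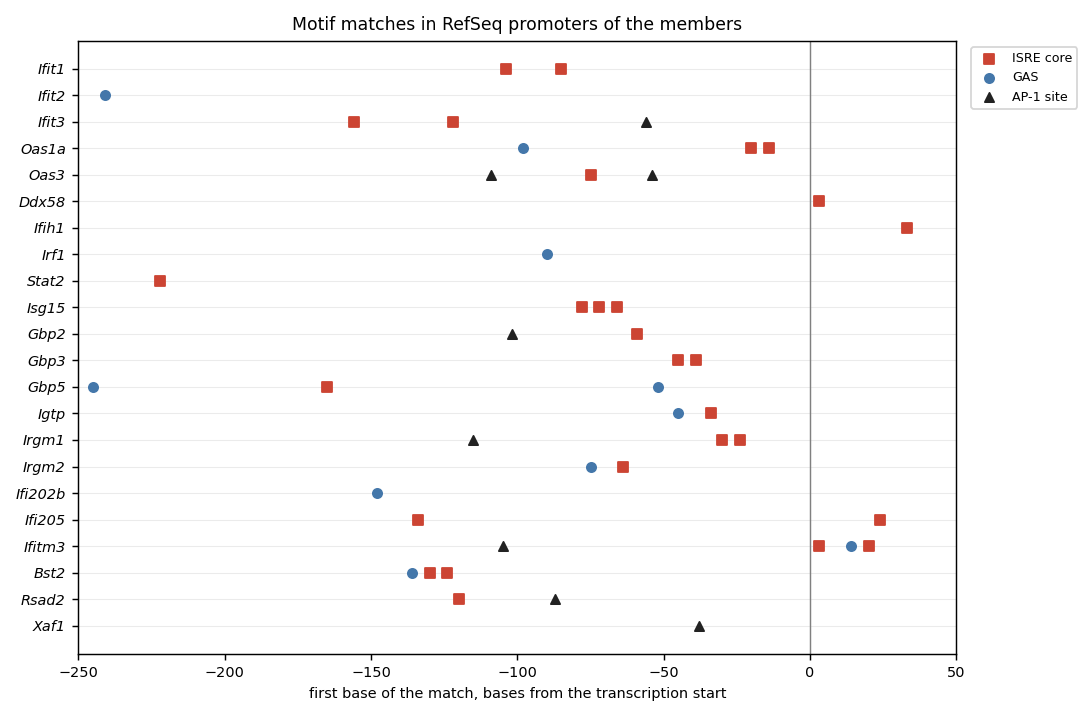
Position of the first base of each ISRE core (squares), GAS (circles) and AP-1 site (triangles) in bases from the transcription start, for the 22 members with a match. ISRE cores lie mostly within 150 bases before the start, with 2 or more in Isg15, Ifit1, Ifit3, Oas1a, Gbp3, Irgm1, Ifi205, Ifitm3 and Bst2.

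Many members also share a place in the genome (GRCm38). The Ifit genes lie together on chromosome 19, the Oas genes on chromosome 5, the Gbp genes on chromosome 3, the p200 genes on chromosome 1, the Ifitm genes on chromosome 7, and Rsad2 lies next to Cmpk2 on chromosome 12. Such neighbors are near-identical copies in part (Ifit3 and Ifit3b, Oas1a and Oas1g, Mx1 and Mx2, the Gbp and p200 genes), and reads shared between copies make their single values uncertain. In the hair plucking and wound tables Irf9 was joined with its neighbor Rnf31, and Igtp with Irgm2, into a single locus, so that 36 of the 39 members had a value of their own there. All 39 had one in keratinocytes.

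Junb, the check of the deletion, was at 268 FPKM (wild type) and 31.4 (JunB cKO) in keratinocytes (log2 ratio -3.05). After hair plucking it was at 40.8 and 11.7 (log2 ratio -1.71), and in wounds at 33.4 and 15.4 (log2 ratio -1.06). In the keratinocyte pair the basal keratin gene Krt5 was at 2592 and 2690 FPKM and Col1a1, a fibroblast collagen, at 2.66 and 2.58, as the label says. Hair plucking samples carry keratinocyte as the tissue label too, but Col1a1 was at 1168 and 527 there and at 2506 and 2673 in wounds. In these bulk samples, fewer cells of a type and less RNA per cell cannot be told apart. Depth could be estimated for the keratinocyte pair from sensory receptor genes, whose low values fall on steps of 1 read, and the wild type library had 3.39 times the reads per FPKM of the JunB cKO library. An exact 0 can be a failed estimate, since Gapdh was listed at 0 in both keratinocyte libraries, and 72 of 6343, 330 of 8553 and 194 of 8456 named genes with at least 10 FPKM in a genotype were listed at 0 in the other in keratinocytes, hair plucking and wounds, respectively.

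In keratinocytes, 33 of 39 members were higher in JunB cKO (26 of 39 with the background subtraction described below), as were 56.2% of all named genes and 37.2% of those with a mean FPKM of at least 1. At least 2-fold higher were 6 (Isg15, Ifit1, Oasl2, Rtp4, Rsad2 and Ifitm1), where 9.31% of all named genes and 5.57% of those with a mean of at least 1 were. A single member, Ifi202b, was at least 2-fold lower, against 0.847% of all named genes and 1.52% of those with a mean of at least 1. The median log2 ratio of the members was 0.58, beside 0.13 for all named genes and -0.12 for those with a mean of at least 1. Of the 22 members with a mean of at least 1, 17 were higher, and their median log2 ratio was 0.29. Most of the members were barely expressed, as 17 of 39 reached 1 FPKM in wild type, and the comparison rests on few reads, as described below.

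After hair plucking, 23 of 36 members were higher in JunB cKO, where 51.0% of the named genes with a mean FPKM of at least 1 were, and the differences were the largest of the 3 conditions in both directions. Ifit1, Oas1a, Oasl1, Mx2, Dhx58, Isg15, Ifi202b and Rtp4 were at least 2-fold higher (8 of 36, of which Oas1a, Oasl1 and Dhx58 were listed at 0 in wild type), whereas Irf1 and Ifitm1 were at least 2-fold lower. Among all named genes 6.42% were higher and 5.62% lower by this measure, and among those with a mean FPKM of at least 1 the shares were 16.3% and 14.6%. With 7 of 34 members past the limit at a mean of at least 1, the share of higher members lay close to that of expressed genes in general. The median log2 ratio of the members was 0.45 (0.31 over the 32 members above 0 in both genotypes), beside 0.02 for the named genes with a mean of at least 1. Of the 34 members with a mean of at least 1, 21 were higher.

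In wounds, members differed little. Ifitm1 alone was at least 2-fold higher, 0 of 36 were at least 2-fold lower, and 32 of 36 were within 1.5-fold. The background was 2.14% higher and 1.97% lower among all named genes, and 4.97% and 4.43% among those with a mean FPKM of at least 1, so that the count of members was close to or below it. In all, 26 of 36 members were higher in JunB cKO, where 51.3% of the named genes with a mean of at least 1 were, and their median log2 ratio was 0.15 beside 0.01 for the named genes with a mean of at least 1.

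**Figure D2:**
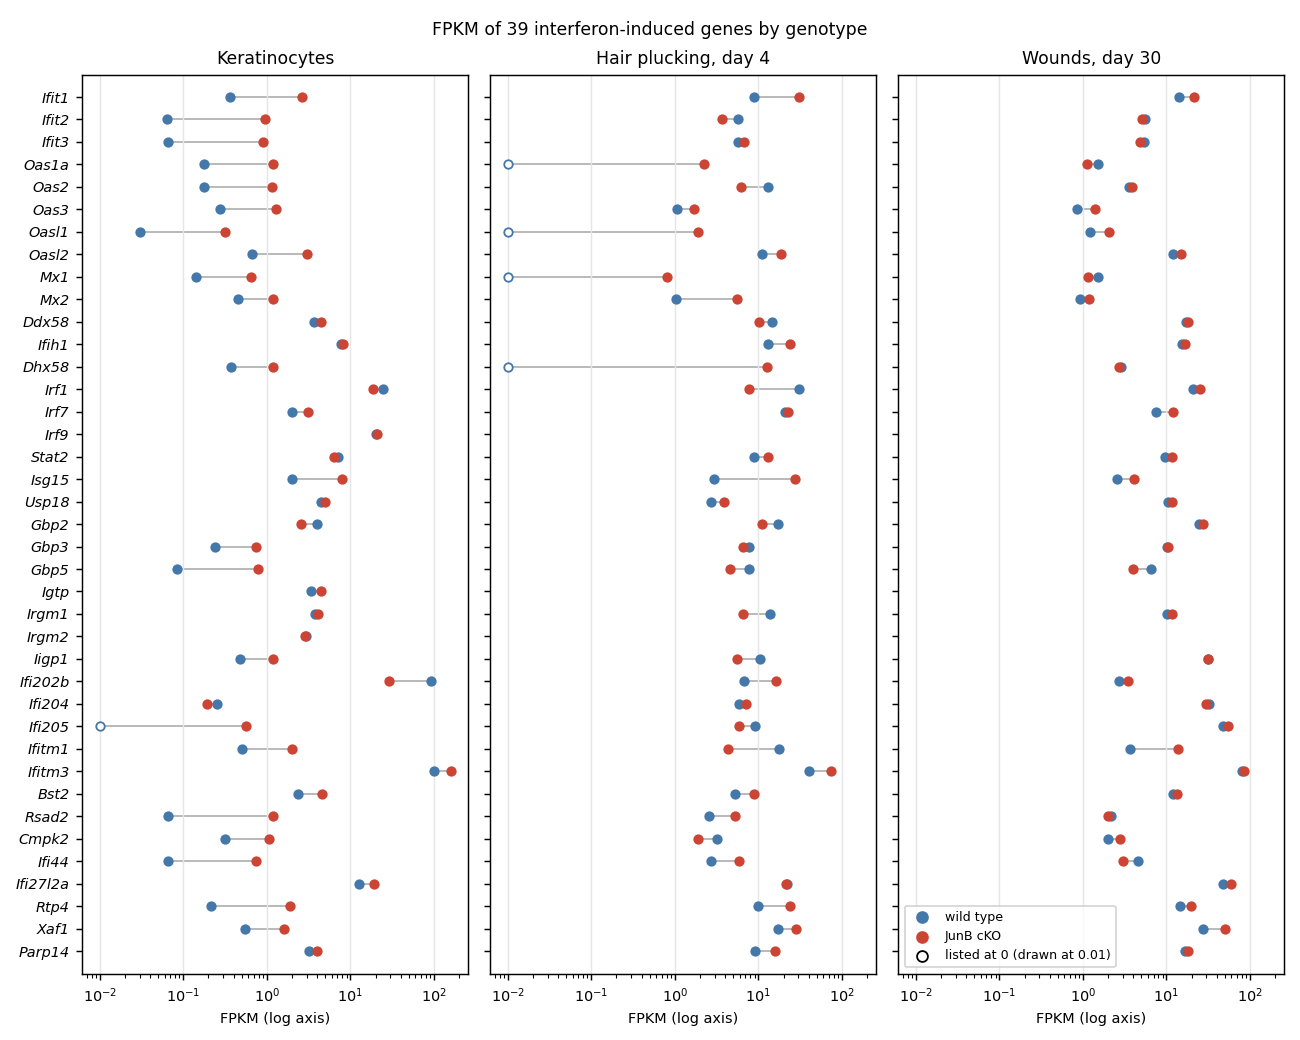
FPKM (log axis) of the 39 members in wild type (blue) and JunB cKO (red), 1 point per genotype, for keratinocytes, hair plucking and wounds; open points are listed at 0 and drawn at 0.01. In keratinocytes most members sit near or below 1 FPKM and the JunB cKO point lies to the right, whereas in wounds the points of both genotypes nearly coincide.

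The level of the set itself differed between the tables, which were normalized separately. In wild type the median member lay at percentile 49.2 of the named genes in keratinocytes, at 82.4 after hair plucking and at 83.1 in wounds. The named genes themselves had wild type medians of 0.566, 0 and 0.0460 FPKM, respectively, so that the same FPKM ranks lower in keratinocytes. Ifitm3, an antiviral membrane protein, had the highest FPKM of the set in each table. It was at 101 (wild type) and 159 (JunB cKO) in keratinocytes, at 40.0 and 73.4 after hair plucking, and at 81.3 and 85.4 in wounds. Summed over the members, FPKM was 304 (wild type) and 330 (JunB cKO) in keratinocytes, 348 and 452 after hair plucking, and 509 and 599 in wounds.

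The ligands of the pathway were hardly detected. Of 21 interferon genes 17 had a value in the keratinocyte table, where Ifnk (interferon kappa, the type I interferon of keratinocytes) was the highest at 1.43 FPKM (wild type) and 1.62 (JunB cKO). After hair plucking Ifnk was listed at 0 (wild type) and at 4.11 (JunB cKO), Ifna9 at 0 and 2.71, and the other 19 at 0 in both. In wounds Ifnk was at 1.28 and 1.77, and Ifng, the gene of interferon gamma, at 0.137 and 0.468. No ligand thus exceeded 5 FPKM in any library.

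Receptors were expressed at moderate levels, and none with a locus of its own was past 2-fold. Ifnar1, a chain of the type I receptor, was at 6.40 and 5.95 FPKM in wild type and JunB cKO keratinocytes, at 23.7 and 15.3 after hair plucking, and at 21.6 and 18.2 in wounds. Ifnar2, the other chain, was at 5.46 and 5.64 in keratinocytes, and the locus that joins it with Il10rb was at 45.9 and 12.9 after hair plucking (log2 ratio -1.75) and at 43.3 and 55.1 in wounds. This joined locus does not tell which of its genes was lower. Ifngr1, the ligand-binding chain for interferon gamma, was at 43.9 and 30.7 in keratinocytes, at 55.9 and 53.0 after hair plucking, and at 45.6 and 56.0 in wounds. Its partner Ifngr2 was closest between the genotypes in keratinocytes (20.8 and 20.1) and lower in JunB cKO after hair plucking (16.2 and 9.17), within 2-fold. Ifnlr1, the type III receptor chain, was at 2.23 and 3.16 after hair plucking and at 2.16 and 2.58 in wounds.

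Of the signal transducers and transcription factors, Irf1 stood out after hair plucking. Stat2, a transducer of the type I response, was at 7.08 and 6.41 FPKM in keratinocytes, at 8.83 and 12.9 after hair plucking and at 9.61 and 11.5 in wounds. The DNA-binding subunit gene Irf9 was at 20.3 and 20.7 in keratinocytes, and its locus with Rnf31 at 35.9 and 63.2 after hair plucking and at 29.7 and 45.3 in wounds. Stat2 was thus within 2-fold in every table, and Irf9 in keratinocytes, where it has a value of its own. Irf1, an early target of interferon gamma with the GAS shown above, was at 24.4 and 18.5 in keratinocytes, at 30.6 and 7.77 after hair plucking (log2 ratio -1.85, the lowest of the set there), and at 20.6 and 25.5 in wounds. Irf7, the factor that amplifies type I interferon production, did not follow it, with 1.98 and 3.08 in keratinocytes, 21.0 and 22.9 after hair plucking and 7.59 and 11.9 in wounds. Irf2, which competes with Irf1 for its sites, was at 41.4 and 20.0 after hair plucking (log2 ratio -1.01).

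The RNA sensors differed from each other. Ddx58 encodes RIG-I and Ifih1 encodes MDA5, which recognize viral RNA in the cytoplasm, and Dhx58 encodes their regulator LGP2. Ddx58 was at 3.69 and 4.44 FPKM in keratinocytes, at 14.5 and 10.2 after hair plucking and at 17.1 and 18.2 in wounds. For Ifih1 the values were 7.80 and 8.19, 13.1 and 23.6, and 15.5 and 16.9. Dhx58 was low in keratinocytes (0.374 and 1.18) and wounds (2.82 and 2.69), and after hair plucking it was listed at 0 (wild type) and at 12.8 (JunB cKO). Ddx58 RNA was therefore lower and Ifih1 RNA higher in JunB cKO after plucking, both within 2-fold, and the difference of Dhx58 rests on a 0.

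IFIT proteins bind viral RNA that lacks the host cap mark and stop its translation. Ifit1 was higher in JunB cKO in every table, at 0.364 and 2.63 FPKM in keratinocytes (log2 ratio 1.41), at 8.81 and 30.9 after hair plucking (1.70) and at 14.2 and 21.1 in wounds (0.54). Its neighbors did not share this. Ifit2 was at 0.0631 and 0.963 in keratinocytes, at 5.69 and 3.64 after hair plucking and at 5.55 and 5.10 in wounds. Ifit3 was at 0.0658 and 0.893, at 5.72 and 6.74, and at 5.38 and 4.80, respectively. Outside keratinocytes the 3 genes of this cluster therefore differed in direction.

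The OAS enzymes make 2'-5'-linked oligoadenylates that activate RNase L, and Oasl1 and Oasl2 are relatives, of which Oasl1 restrains Irf7 translation. Oasl2 was at 0.665 and 3.01 FPKM in keratinocytes (log2 ratio 1.27), at 11.2 and 18.8 after hair plucking (0.70) and at 11.99 and 14.9 in wounds (0.29). Oas1a was at 0.175 and 1.19 in keratinocytes, listed at 0 and at 2.21 after hair plucking, and at 1.52 and 1.12 in wounds. Oas2 ran the other way after hair plucking, at 12.9 (wild type) and 6.19 (JunB cKO) (log2 ratio -0.95), and was at 0.178 and 1.15 in keratinocytes and at 3.53 and 3.83 in wounds. The others were low throughout. Oas3 was at 0.275 and 1.29, 1.07 and 1.72, and 0.859 and 1.40 in the 3 tables. Oasl1 was at 0.0308 and 0.313 in keratinocytes, listed at 0 and at 1.91 after hair plucking, and at 1.20 and 2.08 in wounds.

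Mx proteins are dynamin-like GTPases that trap viral nucleocapsids, and Mx1 carries a deletion in most laboratory strains, C57BL/6 included. Mx2 was at 0.453 and 1.17 FPKM in keratinocytes, at 1.02 and 5.60 after hair plucking (log2 ratio 1.71) and at 0.934 and 1.18 in wounds. Mx1 was at 0.142 and 0.643, listed at 0 and at 0.813, and at 1.53 and 1.15, respectively. In wounds the pair thus lay within 1.5-fold and on either side of equality.

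Isg15, a ubiquitin-like protein that is conjugated to targets and also secreted, had the largest log2 ratio of the set in keratinocytes. Its FPKM was 2.02 (wild type) and 7.95 (JunB cKO) in keratinocytes (log2 ratio 1.57), 2.98 and 27.4 after hair plucking (2.84) and 2.55 and 4.12 in wounds (0.53). Ube2l6, the conjugating enzyme for Isg15, was higher by at least 2-fold in all 3 tables, at 1.65 and 4.40, at 2.93 and 7.91, and at 11.6 and 25.7. In keratinocytes its log2 ratio was 1.03, close to the limit, and the background subtraction described below was done for members only. The gene of the protease that removes Isg15 and dampens the type I receptor, Usp18, was at 4.49 and 4.98 in keratinocytes, at 2.73 and 3.85 after hair plucking and at 10.5 and 11.6 in wounds. Isg15 and its conjugating enzyme were therefore higher in JunB cKO in each condition, whereas the protease stayed within 1.5-fold.

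The GTPases that assemble on pathogen vacuoles, guanylate-binding proteins (Gbp2, Gbp3, Gbp5) and immunity-related GTPases (Igtp, Irgm1, Irgm2, Iigp1), showed the opposite direction after hair plucking. All 5 with a value of their own were lower in JunB cKO there (median log2 ratio -0.64). None reached the 2-fold limit, which is set with the pseudocount of 1. Irgm1, which regulates the other immunity-related GTPases, was at 13.7 FPKM (wild type) and 6.58 (JunB cKO). Its log2 ratio was -0.96, and without the pseudocount the values were 2.09-fold apart. Iigp1 was at 10.4 and 5.56, and Gbp2 at 17.2 and 11.2. Gbp5, which also promotes inflammasome assembly, was at 7.65 and 4.53, and Gbp3 at 7.67 and 6.48. Relatives outside the set or in joined loci did not share this direction uniformly. The locus joining Igtp with Irgm2 was at 8.01 and 12.7, Gbp7 at 11.9 and 26.3, and the locus joining Gbp4, Gbp8 and Gbp9 at 8.88 and 27.5, whereas Tgtp2 was at 13.0 and 0.625.

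In keratinocytes the same GTPases were within 2-fold, with Gbp2 at 4.04 and 2.58 FPKM (log2 ratio -0.49) and Gbp5 at 0.0839 and 0.782 as the extremes. Igtp was at 3.38 and 4.51, Irgm1 at 3.79 and 4.06, and Irgm2 at 2.96 and 2.85, so that these 3 hardly differed. Iigp1 was at 0.474 and 1.17 and Gbp3 at 0.243 and 0.740. In wounds Iigp1 (31.8 and 31.2), Gbp2 (24.6 and 27.6), Gbp3 (10.2 and 10.5) and Irgm1 (10.2 and 11.7) were nearly equal between the genotypes, and Gbp5 was lower in JunB cKO (6.61 and 3.96, log2 ratio -0.62).

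The p200 proteins sense DNA or regulate transcription in the nucleus, and the level of Ifi202b is known to differ between inbred strains. Ifi202b was the only member at least 2-fold lower in keratinocytes, at 92.6 FPKM (wild type) and 28.8 (JunB cKO) (log2 ratio -1.65). After hair plucking it was higher in JunB cKO, at 6.64 and 16.1 (log2 ratio 1.16), and in wounds it was at 2.71 and 3.45 (0.26). Its direction thus turned between the conditions, and it went from the second-highest FPKM of the set in wild type keratinocytes to one of the lower ones in wounds. Mice of both genotypes are given as C57BL/6, and any part of strain background in the Ifi202b values was not tested. The neighbors differed again, with Ifi204 at 0.254 and 0.191, 5.85 and 7.11, and 32.1 and 29.9 in the 3 tables. Ifi205 was listed at 0 and at 0.568 in keratinocytes, and was at 8.99 and 5.94 after hair plucking and at 47.1 and 54.5 in wounds. Aim2, the inflammasome DNA sensor of the same family, was at 0.455 and 2.14 in keratinocytes and at 5.51 and 17.2 after hair plucking, at least 2-fold higher in both, and at 16.5 and 9.66 in wounds (log2 ratio -0.71). Its keratinocyte log2 ratio of 1.11 was close to the limit and was taken without the background subtraction.

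Among the membrane restriction factors, which block fusion (Ifitm1, Ifitm3) or tether budding virus (Bst2), Ifitm1 turned as well. It was at 0.498 FPKM (wild type) and 2.00 (JunB cKO) in keratinocytes (log2 ratio 1.002), at 17.8 and 4.33 after hair plucking (-1.82) and at 3.68 and 13.8 in wounds (1.66). Wild type was thus the higher genotype only after plucking. Ifitm3, at the far higher levels given above, had log2 ratios of 0.65, 0.86 and 0.07. Bst2 was at 2.39 and 4.59, at 5.23 and 8.82, and at 11.9 and 13.3, higher in JunB cKO in each table and within 2-fold.

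Further antiviral effectors were mostly higher in JunB cKO. Rtp4, a chaperone of G protein-coupled receptors that also acts on interferon signaling, was at 0.216 and 1.90 FPKM in keratinocytes (log2 ratio 1.25), at 9.97 and 23.7 after hair plucking (1.17) and at 14.5 and 19.5 in wounds (0.41). Xaf1, an antagonist of the apoptosis inhibitor XIAP, was at 0.543 and 1.59, at 17.1 and 28.4, and at 27.4 and 49.98 (log2 ratio 0.84 in wounds, second to Ifitm1). Rsad2 encodes viperin, which makes a chain-terminating nucleotide, and was at 0.0660 and 1.18, at 2.57 and 5.21, and at 2.14 and 1.98. These genes were thus alike in keratinocytes and after plucking and parted in wounds. Cmpk2, the neighbor of Rsad2 and a mitochondrial nucleotide kinase, was at 0.317 and 1.07, at 3.19 and 1.92, and at 2.01 and 2.75. Ifi44 was at 0.0655 and 0.741, at 2.70 and 5.93, and at 4.59 and 3.04. The pair next to each other on chromosome 12 thus differed in direction after plucking and in wounds. Ifi27l2a was at 12.6 and 19.1, at 21.8 and 21.3, and at 47.0 and 59.7. Parp14, a mono-ADP-ribosyltransferase, was at 3.21 and 4.01, at 9.14 and 15.7, and at 16.6 and 18.04. Of these 7 genes, 7 were higher in JunB cKO keratinocytes, 5 after hair plucking and 5 in wounds.

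**Figure D3:**
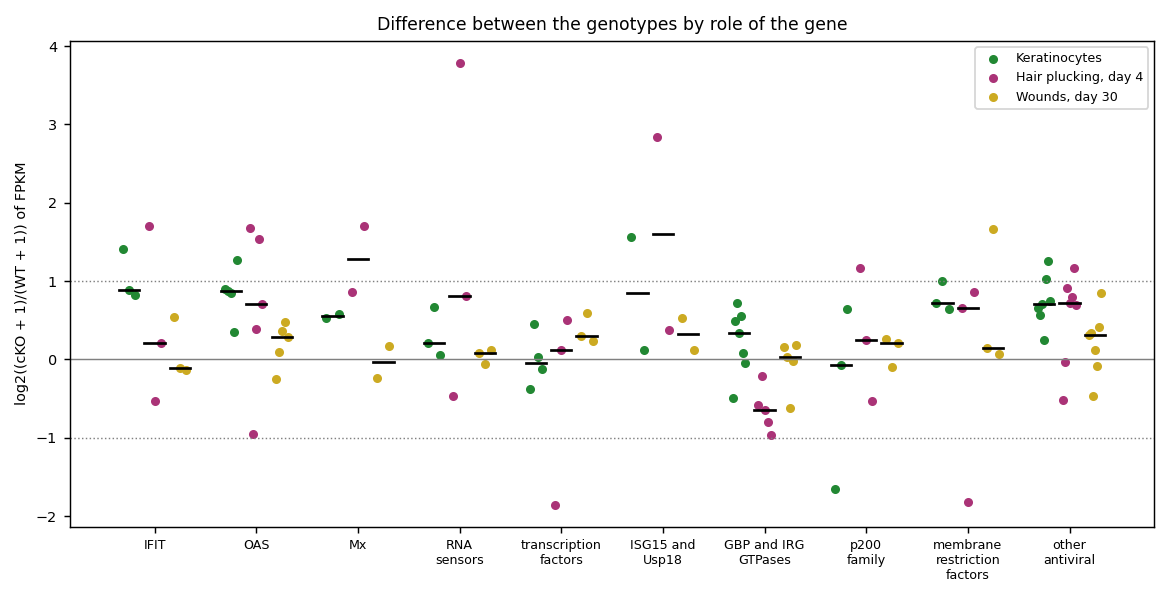
Log2 ratio of JunB cKO over wild type for each member (points), grouped by role, in keratinocytes (green), hair plucking (purple) and wounds (yellow); black bars are group medians and dotted lines mark 2-fold. The GTPases lie below 0 after hair plucking (median -0.64), whereas Isg15 (2.84) and Dhx58, listed at 0 in wild type, lie highest there; the wound values stay near 0 except Ifitm1.

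Of the 36 members with a value in all 3 tables, 14 (38.9%) were higher in JunB cKO in all 3 and 0 were lower in all 3, where 7.67% and 8.46% of the 21441 named genes found in all 3 tables were. Of the 14, Oasl1, Ifih1 and Usp18 were no longer higher in keratinocytes with the background subtraction described below. Within 2-fold in all 3 tables were 24 (66.7%, against 73% of those genes), and 5 (13.9%, against 2.64%) were at least 2-fold apart in more than 1 table (Ifit1, Isg15, Rtp4, Ifi202b and Ifitm1). The first 3 of these had the same direction each time, and the last 2 did not. The tables do not share libraries, but each rests on a single value per genotype.

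The keratinocyte values need the number of reads beside them. Multiplied by the length of the exons and by the estimated reads per FPKM, Isg15 stood for about 20.3 reads in wild type and 23.5 in JunB cKO. Ifit1 stood for about 12.9 and 27.4 reads, and Oasl2 for 27.6 and 36.8. For Rtp4 the estimate was 5.59 and 14.5, for Rsad2 3.32 and 17.4, and for Ifitm1 7.24 and 8.58. The FPKM ratios of Isg15, Oasl2 and Ifitm1 thus arise from similar read numbers divided by different depths. Ifi202b, in contrast, rested on about 2089 and 192 reads.

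A low level of reads over many genes was also seen in the JunB cKO keratinocyte library. Sensory receptor genes, which skin should hardly express, were above 0 in 86.2% of 1480 loci in JunB cKO (median 0.543 FPKM) and in 4.93% in wild type (median 0). Among the 19 members with a wild type level above 0 and up to 0.5 FPKM, 18 were higher in JunB cKO, and the median log2 ratio was 0.72. Over all 4538 named genes in the same range 4252 were higher, with a median of 0.61, close to that of the low members. For the 19 members above 0.5 FPKM the median was 0.21, beside -0.13 for 13368 named genes in that range. With the receptor median subtracted from each library, 3 members remained at least 2-fold higher (Isg15 at a log2 ratio of 1.47, Ifit1 at 1.18 and Oasl2 at 1.06), and Rtp4 (0.96), Ifitm1 (0.71) and Rsad2 (0.61) did not. Ifi202b stayed at -1.67, and the median of the members was 0.18.

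**Figure D4:**
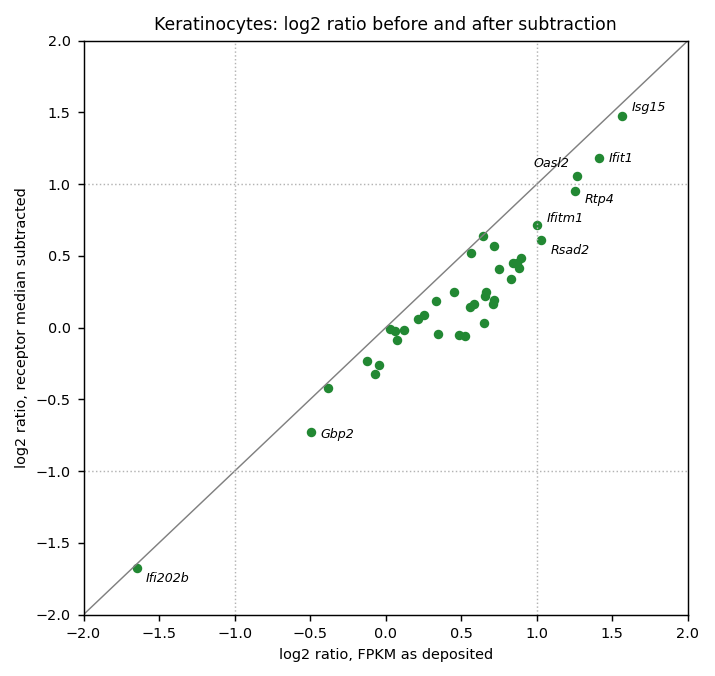
Log2 ratio of each member in keratinocytes from the deposited FPKM (x axis) and after subtraction of the receptor median of each library (y axis); the line marks equality and dotted lines mark 2-fold. Isg15, Ifit1 and Oasl2 stay above 1 and Ifi202b below -1, while the many members between 0.5 and 1 on the x axis move toward 0.

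Markers of immune cells, dermis and deeper tissue moved with genotype after hair plucking. Of 5 leukocyte markers 4 were at least 2-fold lower in JunB cKO, with a summed FPKM of 80.6 (wild type) and 24.7 (JunB cKO), among them Ptprc (CD45) at 25.7 and 10.3 and Cd52 at 16.6 and listed at 0. Of 8 macrophage and dendritic cell markers 5 were at least 2-fold lower (summed 231 and 96.0), including Cd68 at 34.9 and 6.23. Fibroblast markers were lower too, 3 of 6 by at least 2-fold (summed 5109 and 1856), as were 3 of 3 skeletal muscle markers (summed 78.5 and 13.7) and 2 of 4 adipocyte markers (summed 146 and 48.5), whereas keratinocyte markers summed to 7929 and 9706. The adipocyte marker Adipoq was higher (8.76 and 17.4), and most of the adipocyte sum was Fabp4 (125 and 27.4). Beside these markers the members went both ways, with 23 higher (Isg15, Ifit1 and Mx2 among them) and 13 lower. The lower ones were the 5 GTPases, Irf1, Ifitm1, Oas2, Ifit2, Cmpk2, Ddx58, Ifi205 and Ifi27l2a. The neutrophil list summed to 8.64 and 406, nearly all from S100a8 (listed at 0 and at 152) and S100a9 (2.56 and 250), which activated keratinocytes express as well, while Ly6g, the defining marker of mouse neutrophils, was listed at 0 in both. Csf3r was at least 2-fold lower in JunB cKO (3.55 and 0.551), and Mmp8 was lower within 2-fold (0.980 and 0.207). Cxcr2 was at 1.55 and 2.42. T and NK cell markers summed to 47.4 and 26.9 and endothelial markers to 70.4 and 52.8. The part of these markers in the values of the members was not tested.

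In wounds the leukocyte markers summed to 114 and 143 FPKM and the macrophage and dendritic cell markers to 434 and 436, with 0 of 5 and 0 of 8 past 2-fold. The sum of the neutrophil list was higher in JunB cKO there too (51.1 and 224), with S100a8 at 36.7 and 139 and S100a9 at 10.9 and 77.5. The receptor genes Csf3r (1.80 and 5.60) and Cxcr2 (0.794 and 1.57) were higher, Mmp8 was lower (0.893 and 0.533), and Ly6g was listed at 0. In keratinocytes leukocyte markers summed to 15.9 and 11.9, with Cd52 at 8.41 and 2.65 (1 of 5 at least 2-fold lower), and macrophage and dendritic cell markers to 31.5 and 28.6, of which Cd207 of Langerhans cells made up 23.4 and 15.2. All 6 neutrophil markers were higher in JunB cKO keratinocytes, 3 of them by at least 2-fold (summed 5.23 and 24.4), with S100a8 at 2.16 and 9.43 and S100a9 at 2.88 and 11.2. Ly6g (0.981), Csf3r (0.649) and Mmp8 (0.534) stayed below 1 FPKM in JunB cKO. Of the 4538 named genes above 0 and up to 0.5 FPKM in wild type, 4252 were higher in that library too. All 5 endothelial and all 4 skeletal muscle markers were higher as well, 0 of them by 2-fold. Among all named genes 9.31% were at least 2-fold higher. Siglech, the defining marker of plasmacytoid dendritic cells, the main producers of type I interferon, was listed at 0 and at 0.639 in keratinocytes, listed at 0 in both genotypes after hair plucking, and was at 0.442 and 1.83 in wounds.

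**Figure D5:**
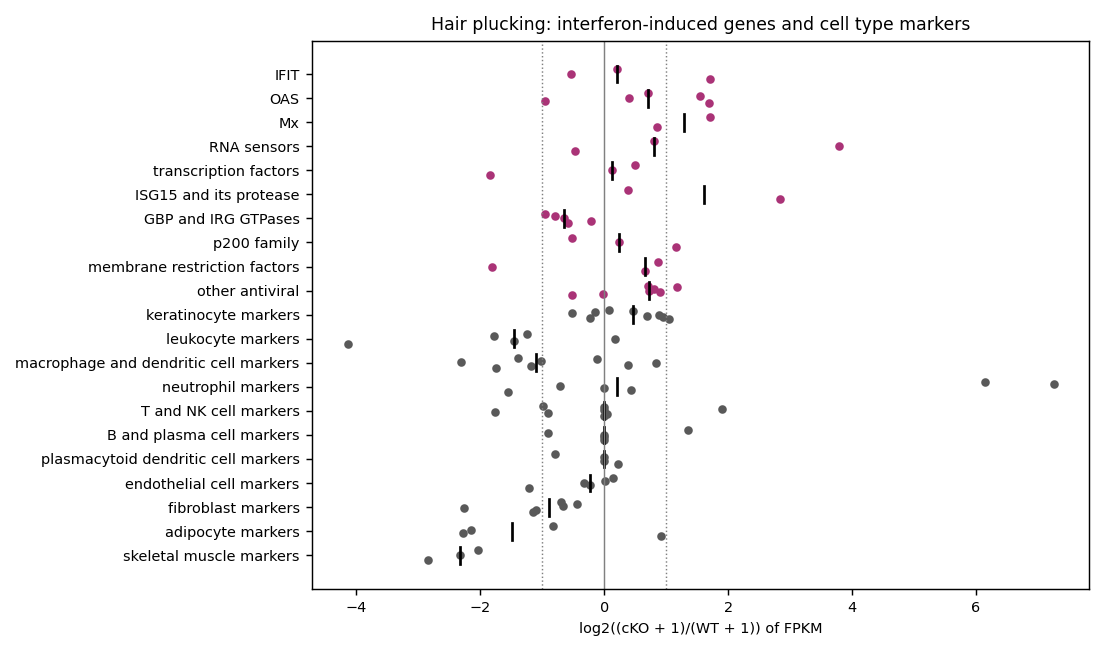
Log2 ratio of JunB cKO over wild type after hair plucking for the members by role (purple points) and for cell type markers (gray points); black bars are medians and dotted lines mark 2-fold. Leukocyte (median -1.46), macrophage and dendritic cell (-1.10) and adipocyte (-1.49) values lie mostly left of 0. All GTPase (-0.64), fibroblast (-0.89) and skeletal muscle (-2.32) values lie left of 0. ISG15 and its protease, Mx and the other antiviral genes lie mostly to the right.

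A wider list of 136 genes of the pathway, without the members, gave a mixed picture. In keratinocytes 7 of 115 genes with a value were at least 2-fold higher (6.09%) and 0 lower. This share lay below the 9.31% of all named genes and above the 5.57% of those with a mean FPKM of at least 1. Of the 7, those with a mean FPKM of at least 1 were Zbp1, a sensor of Z-form nucleic acids (0.0331 and 2.23), Aim2 and Ube2l6. The background subtraction was not applied to these genes. After hair plucking 15 of 114 were higher (13.2%) and 17 lower (14.9%), more than the 6.42% and 5.62% of all named genes. Among named genes with a mean FPKM of at least 1 the shares were 16.3% and 14.6%. Higher were Socs3, a feedback inhibitor of JAK signaling (2.93 and 35.4), the double-stranded RNA kinase gene Eif2ak2 (11.2 and 28.6), the RNA editing enzyme gene Adar (11.3 and 28.9), Ddx60 (3.38 and 9.74), Daxx (8.38 and 18.2) and Ifitm6 (8.09 and 27.7), and also Oas1c (listed at 0 and at 3.74) and Oas1g (listed at 0 and at 3.42). Lower, besides Irf2 and Tgtp2, were the T cell chemokine gene Cxcl10 (5.15 and 0.348), Herc6, the mouse ligase for Isg15 (23.2 and 5.90), and the immunoproteasome gene Psmb10 (7.68 and listed at 0). Among nuclear and RNA-related proteins, Sp100 (22.9 and 8.80), Nmi (37.2 and 14.9), Pnpt1 (44.9 and 12.8) and Mov10 (5.01 and 1.05) were lower as well. The rest were Trim21, an antibody receptor in the cytoplasm (14.4 and 5.44), Trafd1 (46.1 and 21.2), Epsti1 (5.44 and 1.99), Slfn5 (16.9 and 6.63), Slfn8 (5.68 and 1.82), Ms4a4c (11.6 and 0.929) and F830016B08Rik (2.34 and 0.401). After plucking, 46 genes of the wider list were higher, 44 were lower and 24 were equal, with a median log2 ratio of 0.00. Of the equal genes, 19 were ligands listed at 0 in both genotypes. The further interferon-induced genes of the list leaned lower at the 2-fold limit, with 9 of 62 higher (14.5%) and 16 lower (25.8%). Their median log2 ratio was -0.03. In wounds 2 of 114 were higher (1.75%), Tgtp2 (9.34 and 20.2) and Ube2l6. The 3 lower ones (2.63%) were Ifitm6 (7.39 and 1.09), Slfn1 (2.81 and 0.788) and Oas1c (3.28 and 1.05). These shares were near the 2.14% and 1.97% of all named genes. For named genes with a mean FPKM of at least 1 the shares were 4.97% and 4.43%.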

How the data were processed

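RNA-seq tables of JunB cKO and wild type mice were used for keratinocytes, hair plucking and wounds. According to the study's methods, 3 RNA samples of a group were combined before rRNA was removed and stranded libraries were made, and the authors trimmed the reads with the FASTX-toolkit, aligned them with TopHat and HISAT2, and assembled and compared loci with Cufflinks and Cuffdiff (build mm10 per the labels). The deposited tables hold 1 FPKM value per genotype and locus as computed by the authors. They further hold the authors' test status, fold change, test statistic, p-value, q-value and significance mark, which were not used. Conditions of the hair plucking and wound tables come from the names of the tables (4 and 30 days) and the titles of the samples. The wound table holds 1 value per genotype for 2 libraries, which is the authors' pooled value.

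Loci with a single symbol were kept (26340, 46036 and 46048 genes in keratinocytes, hair plucking and wounds), with the locus of the largest summed FPKM where a symbol had several. Ratios used a pseudocount of 1 and a 2-fold limit. No test was run, since there was 1 value per genotype. Total reads are not given in the tables. Reads per FPKM were estimated from receptor genes (Olfr, Vmn1r, Vmn2r, Tas2r) with a locus of 880 to 1000 bases, and only where at least 10 loci stood at 1 read. Gene models are from GENCODE M21 and promoters from RefSeq GRCm38.p6. The code was tested on simulated data, in which genes with a mean of at least 10 FPKM were changed by more than the 2-fold limit over a small spread. There 200 of 200 changed genes were recovered in each table with 0 false calls. This outcome follows from the settings, so it checks the code only and gives no error rate for members at low FPKM.

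All 39 members are accounted for, with values for those past 2-fold, the most abundant, and the extremes of each role group at the least. Of the wider pathway list those past 2-fold with a mean FPKM of at least 1, the receptors and the highest ligands were named. A gene of the pathway is not reported here. Relatives of the GTPases in joined loci and single marker genes were named after their values had been seen. The members and the lists were chosen with earlier results of these data known. Alternatives were pseudocounts of 0.1 and 0.01, a mean FPKM of at least 1, centering on the median ratio, subtraction of the receptor median, summed loci, a 1.5-fold limit and, added after the data had been seen, members above 0 in both genotypes and joined loci counted as 1 member. Python 3.11.15, pandas 2.3.3, numpy 2.4.6 and matplotlib 3.10.9 were used.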

Additional observations from a re-analysis of the deposited data

Results flagged for a closer look

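A pair of members had at least 2-fold differences of opposite sign in different conditions. Ifi202b had a log2 ratio of JunB cKO over wild type of -1.65 in keratinocytes, 1.16 after hair plucking and 0.26 in wounds. Ifitm1 had a log2 ratio of 1.002 in keratinocytes, -1.82 after hair plucking and 1.66 in wounds. With 1 value per genotype and condition, the difference was not tested for either gene. The keratinocyte value of Ifitm1 rests on about 7.24 and 8.58 reads, and that of Ifi202b on about 2089 and 192.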

How the results depend on the processing

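In keratinocytes, the count of members at least 2-fold higher (6) became 22 with a pseudocount of 0.1, 22 with 0.01, 19 with a 1.5-fold limit and 3 with the receptor median subtracted, and the median log2 ratio (0.58) became 1.29, 1.53 and 0.18 with the pseudocounts of 0.1 and 0.01 and the subtraction, and 0.29 with a mean FPKM of at least 1. A smaller pseudocount gives more weight to genes below 1 FPKM by construction. Centering moved the median of expressed genes from -0.12 to 0 and gave 8 higher members and a median of 0.71. After hair plucking, members at least 2-fold lower (2) became 4 with either pseudocount and 6 with the 1.5-fold limit, and those higher (8) became 17 with the 1.5-fold limit and 5 over members above 0 in both genotypes, an alternative chosen after seeing the data. In wounds, the 1.5-fold limit gave 3 higher and 1 lower. Joined loci counted as 1 member, also chosen after seeing the data, moved no count or median beyond these limits. The other 60 counts and medians over 9 alternatives stayed within 1.5 times for counts or close to the reported median, and 0 turned in direction. For single members 37 values in keratinocytes, 9 after hair plucking and 0 in wounds moved past or back over the 2-fold limit. The sign turned for 7 members in keratinocytes with the receptor median subtracted (all within 2-fold as reported, Oasl1, Mx1, Gbp3 and Usp18 among them) and for 2 with centering, and for 0 under the other alternatives.

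No paired analysis was possible because the wound table gives 1 value per genotype for both libraries. For the same reason, leaving out each wound library was not run. In keratinocytes, where 17 of 39 members reached 1 FPKM in wild type, the low read numbers of many members in both libraries and the background of the JunB cKO library limit the ratios. For the 6 members at least 2-fold higher, the estimated reads were fewer in wild type than in JunB cKO.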
